A study of Rattus norvegicus with 6 samples.

Results

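The genes described here encode enzymes of the tricarboxylic acid (TCA) cycle, the steps that feed pyruvate and glutamate into it, and the kinases and phosphatases that control pyruvate entry. A list of 32 gene symbols was looked up in the deposited table of 26126 entries, and 31 were found. Ogdh is not analysed here. All 6 libraries are RNA from H9c2, a cell line that started from embryonic rat heart tissue, and all 6 went through simulated ischemia-reperfusion. Of these, 3 libraries came from cells given an adenovirus for PERK (labelled adPERK), and 3 from cells given a control adenovirus. The ischemic buffer had a pH of 6.2 and held 5.6 mM 2-deoxyglucose, which blocks glycolysis, and 20 mM sodium lactate, under 95% nitrogen and 5% carbon dioxide. The chamber was flushed for 30 min and sealed for a further 1.5 to 3.5 h. Serum at 10% was also listed for all 6 libraries. The labels give neither the reperfusion time nor what drives the PERK transgene, and they do not say that replicates were grown apart, so the p-values reflect differences among these libraries that may be technical. H9c2 is 1 line, and no library without ischemia is in the comparison.

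In a working heart most ATP comes from mitochondria. Pyruvate enters through a carrier and is turned into acetyl-CoA by the pyruvate dehydrogenase complex. The cycle then oxidises acetyl-CoA and passes its electrons to the respiratory chain. Pyruvate dehydrogenase kinases switch the complex off by phosphorylation and the phosphatases switch it on again. PERK is a kinase of the endoplasmic reticulum that phosphorylates eIF2 alpha, which lowers general translation and raises the factor ATF4, an activator of amino acid metabolism genes.

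The libraries held between 77923398 and 119087414 counts. The PERK gene itself, Eif2ak3, stood at 26.5, 26.5 and 26.0 CPM in PERK-labelled libraries, against 26.4, 26.9 and 24.0 CPM in control libraries, so it did not check the labels. CPM is counts per megacount of the TMM-scaled library total. Of 9 adult cardiomyocyte markers in the table, Nppa and Nppb were at 0 in all 6 libraries, and the list summed to 10.5 to 14.6 CPM in PERK-labelled and 10.7 to 12.5 CPM in control libraries. Muscle markers such as Myog and Tnnt2 were present, while Myf5 was at 0 in all 6 libraries. The muscle list summed to 877 to 919 CPM in PERK-labelled and 917 to 984 CPM in control libraries. Tnnt2, at means of 173 CPM in PERK-labelled and 169 CPM in control libraries, was placed in this list and not among the cardiomyocyte markers. Myog, the myogenic factor myogenin, fell to 399.7 ± 9.25 CPM in PERK-labelled libraries, against 486 ± 10.2 CPM in control libraries (SD, n = 3; edgeR adjusted p = 0.0137). It was the 1 muscle marker of 9 tested that edgeR called at an adjusted p of 0.05, where 0.421% of all tested entries were called. DESeq2 called 2 of the 9, where it called 2.72% of all entries. Of the 9, 4 lay above 0, among them Mef2c at a log2 fold change of 0.43 (edgeR adjusted p = 0.268). Fibroblast marker sums were 29009 to 29989 CPM in PERK-labelled and 27470 to 28878 CPM in control libraries, most of it Col1a1 and Col3a1. Of 6 fibroblast markers tested edgeR called 0 and DESeq2 called 1, and 4 lay below 0, with a median log2 fold change of -0.12. Epithelial sums were 53.2 to 54.3 CPM in PERK-labelled and 48.7 to 52.8 CPM in control libraries, and endothelial sums were 0.638 to 1.33 CPM in PERK-labelled and 1.36 to 2.14 CPM in control libraries. Leukocyte sums were 9.98 to 11.05 CPM in PERK-labelled and 8.54 to 12.4 CPM in control libraries. The part of these marker differences in the values that follow was not tested. Control replicate 3 stood apart, with 19287 entries above 0 against 15377 to 16685 in the other 5. It had the lowest total count, and 45.4% of olfactory receptor entries were above 0 in it, against 6.24% to 14.5% in the other 5. The cause was not tested. In cultured cells, fewer cells of a kind and less RNA per cell cannot be told apart.

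None of the TCA cycle, pyruvate and glutamate genes passed the test between PERK-labelled and control libraries. Of 31 genes found, 30 passed the filter on low counts, 0 were higher and 0 lower at an edgeR adjusted p of 0.05, where 0.421% of all 14488 tested entries were called. At an unadjusted p of 0.05, edgeR counted 4 genes, where 11.2% of all tested entries passed, 3 with higher levels in PERK-labelled libraries (5.94% of all entries) and 1 with a lower level (5.29%). The 4 were Glud1, Idh1 and Pdp2, which had positive log2 fold changes, and Pdk3, which had a negative one. DESeq2 called 1 gene, Glud1, where it called 2.72% of all entries, and limma voom called 0, where it called 0.759%. The median log2 fold change of the 30 was 0.04, against -0.0045 over all tested entries, and 21 of the 30 (70%) lay above 0, against 48.7% of all tested entries. Among entries averaging 10 CPM or more the median was 0.0058, and 52.5% lay above 0. For 25 of the 30 genes the 95% interval of the log2 fold change lay inside ±0.263, a 1.2-fold change in either direction (83.3%, against 38.0% of all tested entries and 65.7% of the entries averaging 10 CPM or more). The exceptions were Pdk1, Pdk2, Pdk3, Pdp2 and Me3.

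**Figure D1:**
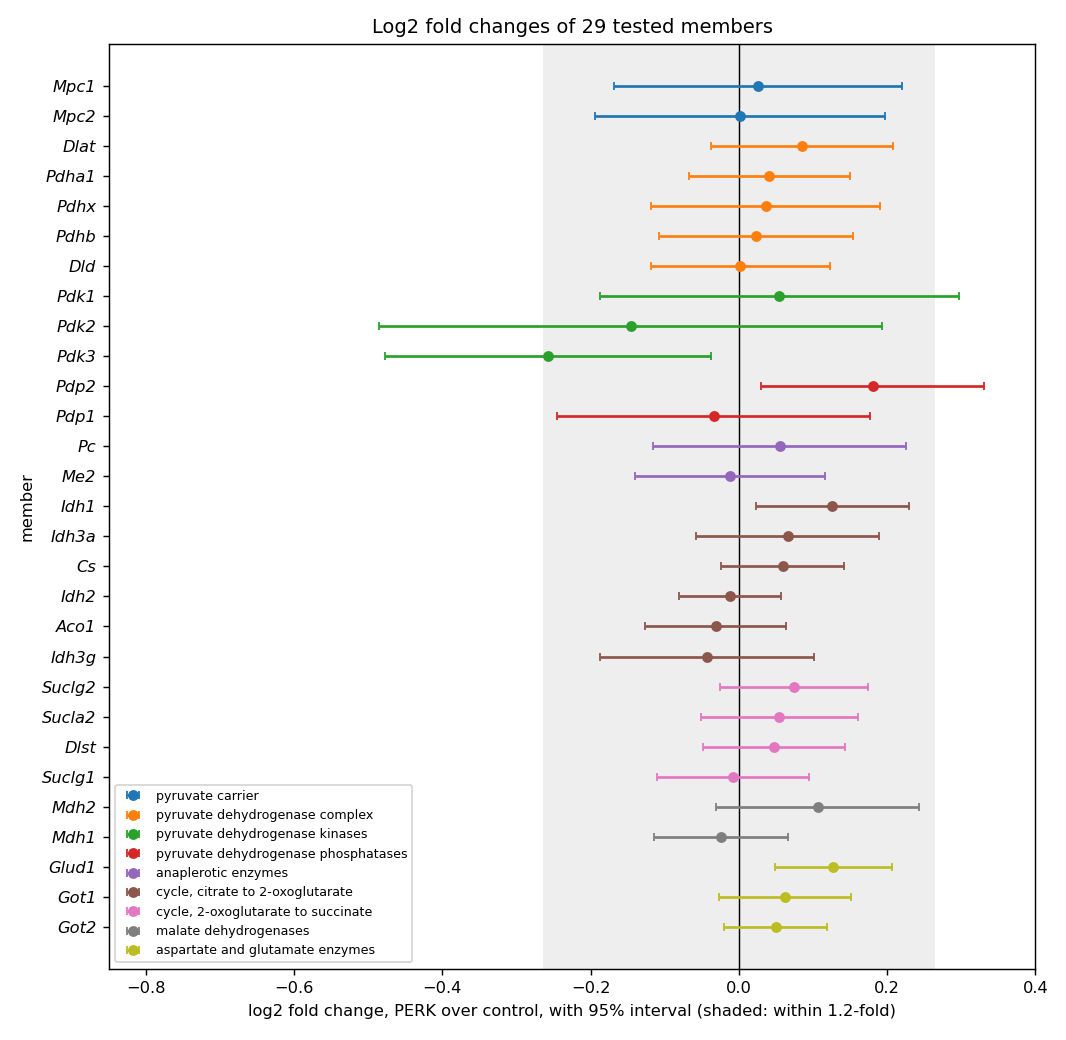
Log2 fold changes of PERK-labelled over control libraries with 95% intervals for 29 tested genes, grouped by role, with the range of a 1.2-fold change shaded. The intervals of Glud1, Idh1 and Pdp2 lie above 0 and that of Pdk3 below 0, before adjustment over all entries. Me3 is left out because its interval runs from -2.64 to 2.80.

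The groups did not overlap for 9 of the 30 genes, 8 with PERK-labelled libraries above and 1 below. Over all tested entries 18.2% had groups that did not overlap, 9.66% with PERK-labelled libraries above and 8.55% below. The 8 above were Glud1, Idh1, Pdp2, Mdh2, Suclg2, Got2, Cs and Got1, and the 1 below was Pdk3. Among the 8299 entries with a mean of at least 10 CPM, a range that holds most of these genes, 22.1% did not overlap. The summed level of the 31 genes was 2557, 2551 and 2542 CPM in PERK-labelled libraries, against 2488, 2486 and 2481 CPM in control libraries. The sum thus lay higher in each PERK-labelled library, by an amount that is small beside either level.

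**Figure D2:**
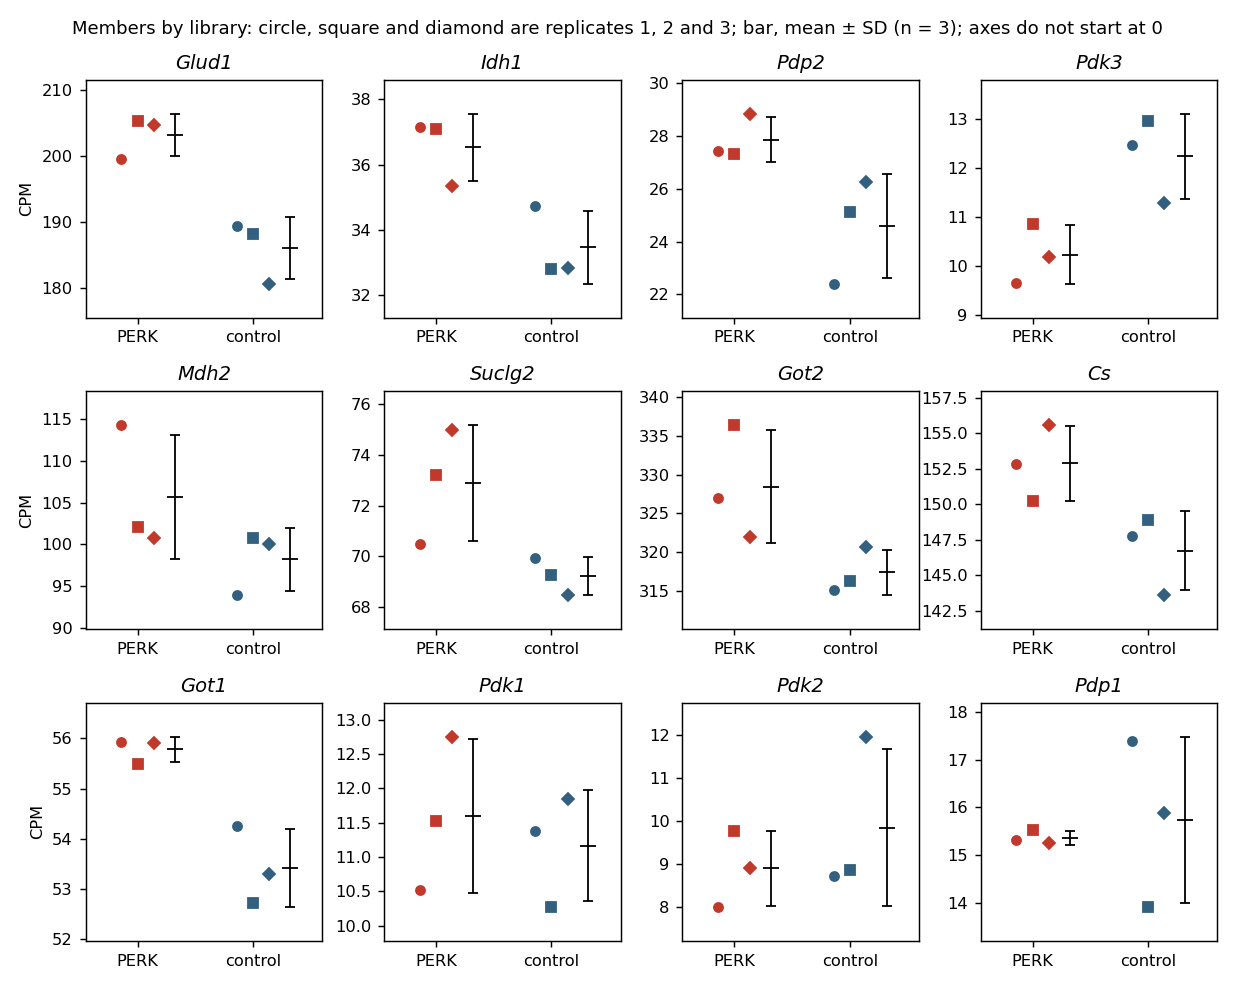
CPM by library for the 9 genes whose groups do not overlap and for Pdk1, Pdk2 and Pdp1, with PERK-labelled libraries left of control libraries; the bar is the mean ± SD of 3 libraries and the axes do not start at 0. Glud1 shows 199.6 to 205 CPM in PERK-labelled and 181 to 189 CPM in control libraries, while Pdk1, Pdk2 and Pdp1 overlap.

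Pyruvate reaches the mitochondrial matrix through a carrier made of Mpc1 and Mpc2. Mpc1 stood at 44.4, 46.0 and 42.6 CPM in PERK-labelled libraries, against 49.8, 39.1 and 41.8 CPM in control libraries. Mpc2 stood at 25.5, 27.1 and 23.0 CPM in PERK-labelled libraries, against 27.9, 24.4 and 23.2 CPM in control libraries. Control replicate 1 was the highest library for both subunits, and the PERK-labelled values lay within the control range for Mpc1. The log2 fold changes were 0.03 (SE 0.08) for Mpc1 and 0.0013 (SE 0.09) for Mpc2. Without control replicate 3 Mpc2 had -0.053.

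The pyruvate dehydrogenase complex joins an E1 part (Pdha1 and Pdhb), the acetyltransferase E2 (Dlat), the lipoamide dehydrogenase E3 (Dld, which the 2-oxoglutarate dehydrogenase complex shares) and the E3-binding protein (Pdhx). All 5 had log2 fold changes between 0.0017 (Dld) and 0.09 (Dlat), and for all 5 the groups overlapped and the interval lay within 1.2-fold. Pdha1, the subunit that carries the phosphorylation sites, stood at 221, 215 and 224 CPM in PERK-labelled libraries, against 203, 211 and 228 CPM in control libraries. Pdha1 thus had a log2 fold change of 0.04 with an SE of 0.05 (edgeR adjusted p = 0.803). Leaving out 1 library moved it between 0.002 and 0.091, the highest without control replicate 3. Pdhb had 0.02, and -0.026 without control replicate 3. Dlat stood at 57.6, 62.7 and 58.3 CPM in PERK-labelled libraries, against 55.1, 58.9 and 54.3 CPM in control libraries. Dld averaged 102 ± 6.26 CPM in PERK-labelled and 102 ± 1.48 CPM in control libraries (SD, n = 3). Dlat and Dld each have a pseudogene named in RefSeq, Dlat-ps1 and Dld-ps1, so their counts are uncertain to the extent that reads were shared.

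Of the 4 kinases that switch the complex off, 3 were tested and none passed the adjusted test. Pdk3, a kinase isoform of the complex, stood at 9.67, 10.9 and 10.2 CPM in PERK-labelled libraries, against 12.5, 13.0 and 11.3 CPM in control libraries. Every PERK-labelled library lay below every control library, and PERK replicate 2 and control replicate 3 were closest. The log2 fold change was -0.26 (SE 0.10, 95% interval -0.48 to -0.04), with an unadjusted p of 0.0266 and an edgeR adjusted p of 0.362. Without control replicate 3 it was -0.31.

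Pdk2, an isoform expressed in most tissues, stood at 7.998, 9.77 and 8.92 CPM in PERK-labelled libraries, against 8.72, 8.86 and 12.0 CPM in control libraries. Control replicate 3 was the 1 high library, and without it the log2 fold change was 0.02, against -0.15 with it. Pdk1, an isoform that HIF-1 raises in hypoxia, stood at 10.5, 11.5 and 12.7 CPM in PERK-labelled libraries, against 11.4, 10.3 and 11.9 CPM in control libraries. Its groups overlapped, with a log2 fold change of 0.05 (SE 0.11, edgeR adjusted p = 0.89), and of 0.10 without control replicate 3.

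Pdk4, the isoform that fasting and fatty acids raise in heart and muscle, was barely counted. It had 3, 0 and 0 counts in PERK-labelled libraries, against 0, 0 and 9 counts in control libraries. All 6 values lie under a limit of 18 counts per library, 3 steps of the 6 counts by which low values in this table rise. Pdk4 did not pass the filter on low counts and was not tested, and no fold is given because both groups lie under that limit.

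The phosphatases that switch the complex on are Pdp1, which calcium activates, and Pdp2. Pdp2 stood at 27.4, 27.3 and 28.8 CPM in PERK-labelled libraries, against 22.4, 25.1 and 26.2 CPM in control libraries. Every PERK-labelled library lay above every control library, and control replicate 1 was the lowest. PERK-labelled over control gave a log2 fold change of 0.18 (SE 0.07, 95% interval 0.03 to 0.33), with an unadjusted p of 0.0248 and an edgeR adjusted p of 0.356. Pdp1 averaged 15.4 ± 0.148 CPM in PERK-labelled and 15.7 ± 1.74 CPM in control libraries (SD, n = 3), and its groups overlapped. Pdk3 had the lowest and Pdp2 the highest log2 fold change of the 30 genes, and neither passed the adjusted test.

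Pyruvate and malate also feed or drain the cycle through other enzymes. Pc, pyruvate carboxylase, which makes oxaloacetate, stood at 31.6, 37.0 and 38.1 CPM in PERK-labelled libraries, against 35.6, 32.4 and 34.7 CPM in control libraries (log2 fold change 0.05, SE 0.07). Pc was lowest in PERK replicate 1, and leaving out 1 library moved its log2 fold change between 0.004 and 0.134. Me2, a mitochondrial malic enzyme that turns malate into pyruvate, stood at 75.9, 70.0 and 67.9 CPM in PERK-labelled libraries, against 74.5, 69.2 and 71.9 CPM in control libraries (log2 fold change -0.01, SE 0.06). Both overlapped between groups. Me3, the other mitochondrial malic enzyme, had 43, 56 and 25 counts in PERK-labelled libraries, against 25, 74 and 0 counts in control libraries, and the 95% interval of its log2 fold change ran from -2.64 to 2.80, so no difference was detectable against the spread between replicates.

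The first span of the cycle turns acetyl-CoA and oxaloacetate into 2-oxoglutarate. Cs, citrate synthase, stood at 153, 150.3 and 156 CPM in PERK-labelled libraries, against 148, 149 and 144 CPM in control libraries. The PERK-labelled values lay above the control values by a narrow gap, with a log2 fold change of 0.06 and an SE of 0.04 (edgeR adjusted p = 0.585). Idh1, the cytosolic and peroxisomal NADP-dependent isocitrate dehydrogenase, stood at 37.1, 37.1 and 35.3 CPM in PERK-labelled libraries, against 34.8, 32.8 and 32.8 CPM in control libraries. All 3 PERK-labelled libraries lay above all 3 control libraries, with a log2 fold change of 0.13 (SE 0.04, 95% interval 0.02 to 0.23), an unadjusted p of 0.0223 and an edgeR adjusted p of 0.341.

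Idh2, the mitochondrial NADP-dependent isozyme, stood at 249.5, 244 and 247 CPM in PERK-labelled libraries, against 245, 254 and 248 CPM in control libraries. Its groups overlapped and its log2 fold change of -0.01 (SE 0.03, 95% interval -0.08 to 0.06) had the smallest SE of the 30 genes. The NAD-dependent enzyme of the cycle itself was measured through the subunits Idh3a (log2 fold change 0.07, SE 0.05) and Idh3g (log2 fold change -0.04, SE 0.06), both with overlapping groups. Aco1, the cytosolic aconitase that also acts as an iron sensor, averaged 55.9 ± 1.21 CPM in PERK-labelled and 57.1 ± 0.959 CPM in control libraries (SD, n = 3).

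The next span turns 2-oxoglutarate into succinate. Dlst, the succinyltransferase E2 of the 2-oxoglutarate dehydrogenase complex, stood at 133, 137 and 142 CPM in PERK-labelled libraries, against 129.8, 133 and 136 CPM in control libraries (log2 fold change 0.05, SE 0.04). Succinyl-CoA ligase pairs the common subunit Suclg1 with Suclg2, which makes GTP, or with Sucla2, which makes ATP. Suclg2 stood at 70.5, 73.2 and 75.0 CPM in PERK-labelled libraries, against 70.0, 69.3 and 68.5 CPM in control libraries. Its groups did not overlap, with a log2 fold change of 0.07 (SE 0.04, edgeR adjusted p = 0.567). Sucla2 stood at 64.0, 62.5 and 66.8 CPM in PERK-labelled libraries, against 60.6, 63.6 and 62.0 CPM in control libraries, and overlapped (log2 fold change 0.05, SE 0.05). Suclg1 averaged 67.7 ± 2.42 CPM in PERK-labelled and 68.1 ± 0.429 CPM in control libraries (SD, n = 3).

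Malate dehydrogenase closes the cycle in mitochondria (Mdh2) and serves the malate-aspartate shuttle in the cytosol (Mdh1). Mdh2 stood at 114, 102 and 100.82 CPM in PERK-labelled libraries, against 93.9, 100.77 and 100.04 CPM in control libraries. PERK replicate 1 was the high library, and PERK replicate 3 and control replicate 2 all but touched. Mdh2 had a log2 fold change of 0.11 with an SE of 0.06 (edgeR adjusted p = 0.546), and of 0.05 without PERK replicate 1. Mdh1 stood at 204, 202 and 197 CPM in PERK-labelled libraries, against 211, 208 and 195 CPM in control libraries (log2 fold change -0.02, SE 0.04, and -0.057 without control replicate 3). Both genes have a pseudogene named in RefSeq, as does Cs, and their counts are uncertain to that extent.

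The 3 enzymes that move amino groups between glutamate, aspartate and the cycle all had PERK-labelled libraries above control libraries. So did 9.66% of all tested entries, and 1070 of the 8299 entries with a mean of at least 10 CPM. None of the 3 passed the adjusted test with edgeR. Among other glutamate, glutamine and proline enzymes, 1 of 10 tested genes had PERK-labelled libraries above control libraries. Glud1, glutamate dehydrogenase, which turns glutamate into 2-oxoglutarate in mitochondria, had the smallest p of the 30 genes. It stood at 199.6, 205 and 205 CPM in PERK-labelled libraries, against 189, 188 and 181 CPM in control libraries. Every PERK-labelled library lay above every control library, and control replicate 3 was the lowest. The means were 203 ± 3.18 CPM in PERK-labelled and 186 ± 4.74 CPM in control libraries (SD, n = 3), a log2 fold change of 0.13 (SE 0.03, 95% interval 0.05 to 0.21) with an unadjusted p of 0.00587 and an edgeR adjusted p of 0.207.

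The call on Glud1 differed between tools. DESeq2 gave an adjusted p of 0.0225, the only alternative that called it, and over the alternatives tried its adjusted p ranged from 0.0225 to 0.46. The log2 fold change itself stayed between 0.11 and 0.14, and was 0.11 without control replicate 3. The authors' deposited table gives Glud1 a log2 fold change of 0.13 with an adjusted p of 0.062. The mean it lists for Glud1 is 0.824 of the mean of the 6 normalized libraries. It therefore cannot be said that the authors' test used these 6 libraries alone. In the authors' deposited table no other gene of the 31 has an adjusted p below that of Pdk3, 0.302.

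Got1 and Got2 are the cytosolic and mitochondrial aspartate aminotransferases of the malate-aspartate shuttle. Got1 stood at 55.9, 55.5 and 55.9 CPM in PERK-labelled libraries, against 54.3, 52.7 and 53.3 CPM in control libraries (log2 fold change 0.06, SE 0.04). Got2 stood at 327, 336 and 322 CPM in PERK-labelled libraries, against 315, 316 and 321 CPM in control libraries (log2 fold change 0.05, SE 0.03). Neither gene's groups overlapped, though for Got2 PERK replicate 3 (321.9 CPM) and control replicate 3 (320.7 CPM) lay close together. The edgeR adjusted p was 0.592 for Got1 and 0.583 for Got2. RefSeq names 6 pseudogenes of Got2 and a further gene of similar name, Got2l1, so the Got2 count is uncertain to the extent that reads were shared. Genes with names similar to Pdha1, Got1, Mpc1 and Cs are Pdha1l1, Got1l1, Mpc1l and Csl1. They were found by name alone, and their sequences were not compared. Mpc2, Pdha1, Pc, Dlst and Got1 overlap other RefSeq genes (Adcy10, Map3k15, Lrfn4, Prox2 and Trit1-ps1), Pdhx, Pdk2, Me3 and Mdh2 overlap RefSeq loci without a gene name, and with counting strand not stated, reads of the overlapping stretches cannot be assigned.

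**Figure D3:**
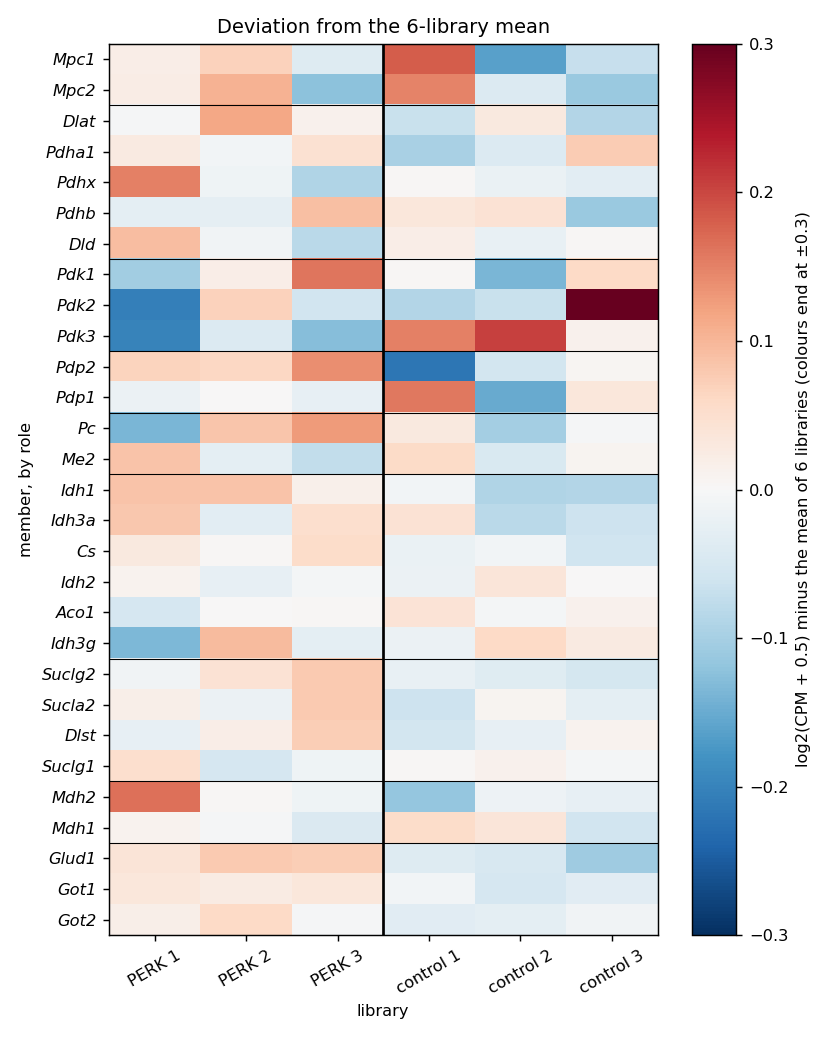
Heat map of log2(CPM + 0.5) minus the mean of the 6 libraries for 29 tested genes, with PERK-labelled libraries left of control libraries and lines between roles. Glud1, Got1 and Got2 are above their mean in nearly every PERK-labelled library and below it in every control library; Pdk2 is highest in control replicate 3, and Mpc1 and Mpc2 in control replicate 1.

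The spread between replicates was small for most of these genes. Leaving out Pdk4 and Me3, the SD was between 0.451% and 9.96% of the mean in PERK-labelled libraries, with a median of 3.57%, and between 0.63% and 18.7% in control libraries, with a median of 3.67%. The largest relative spread in the control group was that of Pdk2. In each library the number of the 30 genes above their own 6-library mean was 19, 19 and 15 in PERK-labelled replicates 1 to 3, against 14, 9 and 12 in control replicates 1 to 3.

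Several steps have a cytosolic and a mitochondrial form, or alternative subunits, and their balance can be read within a library without scaling. The 5 pairs tested were Idh1/Idh2, Mdh1/Mdh2, Got1/Got2, Suclg2/Sucla2 and Mpc1/Mpc2. These are ratios of counts that are not divided by transcript length, so they are compared between libraries and not read as molar ratios. Idh1/Idh2 was 0.149, 0.152 and 0.143 in PERK-labelled libraries, against 0.142, 0.129 and 0.132 in control libraries. The groups did not overlap, with a two-sided exact permutation p of 0.1, the smallest that 3 against 3 allows, and 0.5 after adjustment over the 5 pairs. Mdh1/Mdh2 was 1.78, 1.98 and 1.95 in PERK-labelled libraries, against 2.24, 2.06 and 1.95 in control libraries (exact permutation p = 0.3, adjusted 0.75). The other 3 pairs overlapped, with exact permutation p from 0.6 to 0.8 and adjusted p of 0.8.

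The regulators of pyruvate dehydrogenase were set side by side in the same way, as a description with no test, since these pairs were chosen after their values were seen. Pdk3/Pdk1 was 0.919, 0.942 and 0.80 in PERK-labelled libraries, against 1.10, 1.26 and 0.952 in control libraries. Pdp2/Pdp1 was 1.79, 1.76 and 1.89 in PERK-labelled libraries, against 1.29, 1.80 and 1.65 in control libraries. Only the Pdk3/Pdk1 values kept the groups apart, and there PERK replicate 2 and control replicate 3 lay close together.

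**Figure D4:**
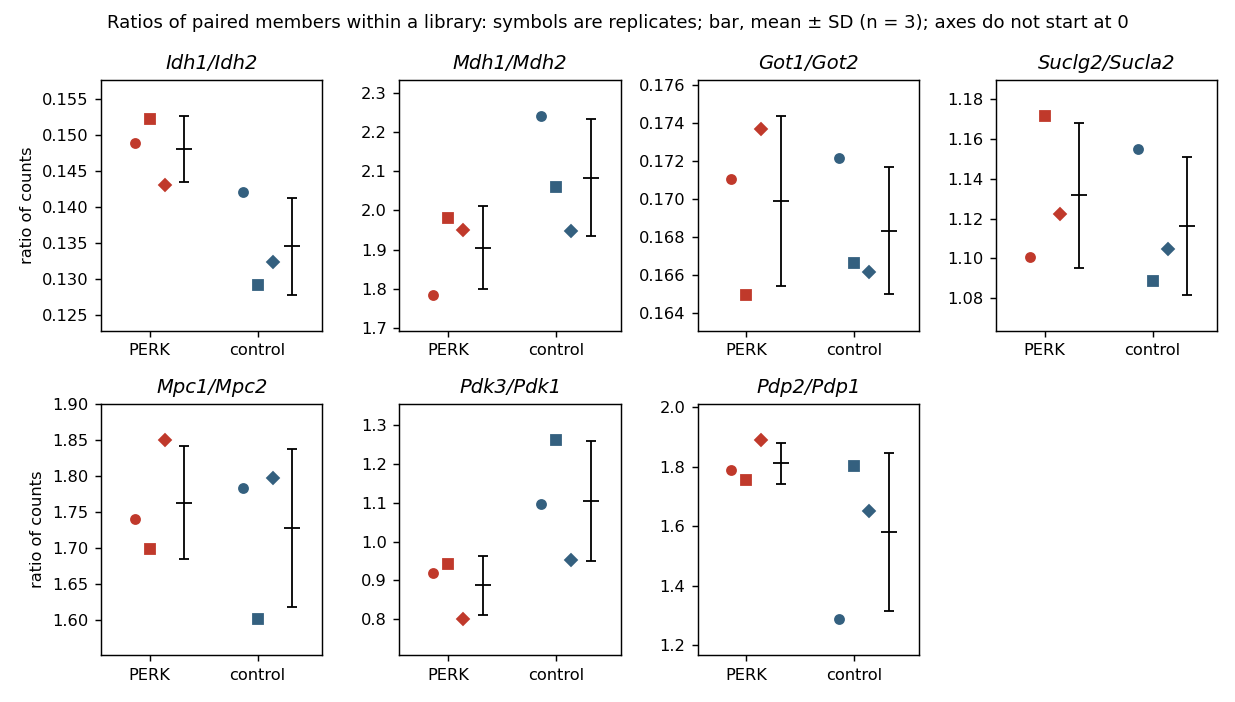
Ratios of the counts of 2 genes within each library, with PERK-labelled libraries left of control libraries and the mean ± SD of 3 libraries as a bar; the axes do not start at 0. The groups are apart for Idh1/Idh2 and Pdk3/Pdk1 and overlap for the other pairs.

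Other genes of the same pathway were taken from a list of 39 symbols, of which 34 were in the table and 32 were tested. None passed at an edgeR adjusted p of 0.05, where 0.421% of all entries did, and 3 were higher and 0 lower at an unadjusted p of 0.05, where 5.94% of all entries were higher and 5.29% lower. The median log2 fold change of the 32 was 0.02. Of 15 further cycle and pyruvate enzymes, Acly, the cytosolic ATP-citrate lyase that makes acetyl-CoA for lipid synthesis, had the smallest p, followed by Pck2, the mitochondrial phosphoenolpyruvate carboxykinase (unadjusted p = 0.0717 with edgeR). Acly stood at 169, 168 and 171 CPM in PERK-labelled libraries, against 137, 152 and 146 CPM in control libraries. The groups did not overlap, with a log2 fold change of 0.22 (SE 0.04) and an edgeR adjusted p of 0.103. Of the 32, DESeq2 called 1, where it called 2.72% of all entries, and limma voom called 1, where it called 0.759%. The robust edgeR fit also called 1 of the 32, where it called 132 of all 14488 tested entries.

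Oat, ornithine aminotransferase, had a log2 fold change of 0.03 (SE 0.04). The 10 tested genes of glutamate, glutamine and proline metabolism had a median log2 fold change of -0.03, with 4 above 0 and 6 below. The succinate dehydrogenase subunit Sdhc had a log2 fold change of 0.04 (SE 0.04). The 7 carriers of cycle intermediates had a median of -0.05, with 3 above 0 and 4 below. Among them the citrate carrier Slc25a1 had a log2 fold change of 0.19 (SE 0.09), the dicarboxylate carrier Slc25a10 -0.17 (SE 0.10) and the 2-oxoglutarate carrier Slc25a11 -0.05 (SE 0.05).

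The pathways that compete for or supply the same carbon were read in the same fit. Of 22 fatty acid oxidation genes edgeR called 0 higher and 1 lower, where it called 0.311% of all entries higher and 0.11% lower. That gene was Cpt1a, the carnitine palmitoyltransferase that admits fatty acids to mitochondria. Cpt1a stood at 29.6, 32.8 and 30.9 CPM in PERK-labelled libraries, against 41.9, 43.8 and 42.2 CPM in control libraries (log2 fold change -0.45, SE 0.05, edgeR adjusted p = 0.0137). The call on Cpt1a ended without PERK replicate 1, PERK replicate 3 or control replicate 2, when the number of genes called in this list and the glycolysis list together was 0. The median over fatty acid oxidation genes was 0.0064, with 12 above 0 and 10 below.

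Of 20 glycolysis and lactate genes edgeR called 0 at an adjusted p of 0.05, where it called 0.421% of all entries. The median log2 fold change was 0.08, with 16 above 0 (80%, against 48.7% of all tested entries). For 6 of the 20 every PERK-labelled library lay above every control library (30%, against 9.66% of all entries). At an unadjusted p of 0.05 edgeR counted 4 as higher, where 5.94% of all entries were. Pgam1 (log2 fold change 0.12, SE 0.04) and Eno1 (log2 fold change 0.09, SE 0.03), enzymes of lower glycolysis, had the smallest p, with edgeR adjusted p of 0.31 and 0.33. Aldoa, the most abundant of the list, had 0.10 (SE 0.04, edgeR adjusted p = 0.33). The TCA cycle, pyruvate and glutamate genes, at 0.04, thus lay between the medians of these lists, and the difference between lists was not tested.

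**Figure D5:**
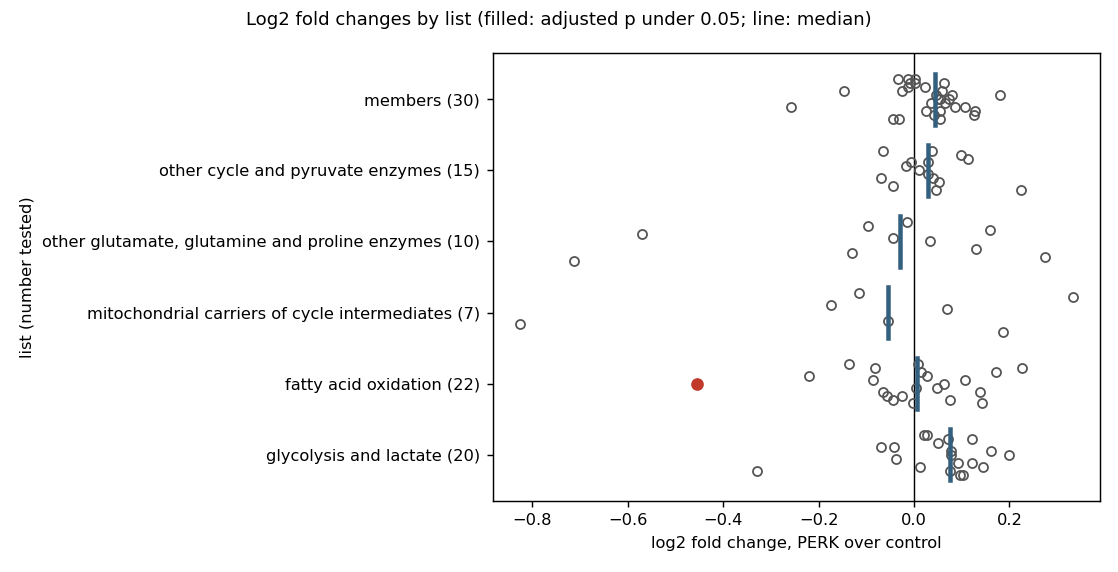
Log2 fold changes of PERK-labelled over control libraries for every tested gene of each list, with the list median as a line and genes at adjusted p under 0.05 filled. The 1 filled point is Cpt1a in fatty acid oxidation; the medians lie between -0.05 and 0.08.

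Start-site regions were read for short motifs because ATF4, the factor translated when PERK is active, binds a composite element with the letters TGATGNAA. RefSeq regions of the GRCr8 assembly, from 250 bases before to 50 bases after a gene start, were matched by symbol for 27 of the 31 genes. TGATGNAA on either strand occurred in 1 of the 27 (3.70%), Got1, and in 3.98% of 33469 regions of the same length. The NRF1 element, read as GCGCA and GCGC with 1 base between them, of a factor that drives many mitochondrial genes, occurred in 2 of 27 (7.41%), Dld and Sucla2, and in 4.25% of all regions. The cAMP response element TGACGTCA occurred in 1 of 27 (3.70%), Mdh2, and in 1.83% of all regions, and the ERR letters TNAAGGTCA in 0 of 27 and in 1.198%. No gene of the 27 held more than 1 of the 4 motifs. The 250 bases before the start are printed for Got1 and Mdh2, where capitals mark the motif, and for Glud1, the gene with the smallest p, which held none of the 4. Got1 lies at chr1:252329872-252330121 on the minus strand, Mdh2 at chr12:26543842-26544091 on the minus strand and Glud1 at chr16:9646319-9646568 on the plus strand.
Got1: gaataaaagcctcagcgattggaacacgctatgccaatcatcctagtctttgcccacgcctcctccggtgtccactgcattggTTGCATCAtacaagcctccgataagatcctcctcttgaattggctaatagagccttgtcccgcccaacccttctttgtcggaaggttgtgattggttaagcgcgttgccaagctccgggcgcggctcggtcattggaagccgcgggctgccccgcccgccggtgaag
Mdh2: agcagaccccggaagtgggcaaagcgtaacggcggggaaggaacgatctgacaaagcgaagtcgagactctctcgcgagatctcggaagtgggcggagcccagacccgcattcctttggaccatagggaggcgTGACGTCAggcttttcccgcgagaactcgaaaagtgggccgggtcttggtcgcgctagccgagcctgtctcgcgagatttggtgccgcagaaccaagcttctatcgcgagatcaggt
Glud1: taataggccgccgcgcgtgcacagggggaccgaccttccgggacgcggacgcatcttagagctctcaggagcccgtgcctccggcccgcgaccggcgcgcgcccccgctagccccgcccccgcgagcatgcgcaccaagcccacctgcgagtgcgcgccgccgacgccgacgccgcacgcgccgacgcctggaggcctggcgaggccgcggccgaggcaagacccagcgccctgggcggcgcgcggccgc

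In Got1 the motif reads TTGCATCA on the printed strand, the reverse complement of a TGATGNAA match, and begins 167 bases before the start that RefSeq's table uses, which is not the outer end of the annotated gene. In Mdh2 it begins 117 bases before the start. Got1, with the ATF4 letters, had a log2 fold change of 0.06, and Glud1, without them, had 0.13. Neither gene passed the edgeR adjusted test, and whether the motif bears on either value was not tested. A match in these letters is a description of the region only.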

How the data were processed

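RNA was sequenced from 6 libraries, with Illumina TruSeq preparation from 1 ug RNA, per the labels' protocols. Bowtie 0.12.2 and mm9, a mouse build, appear in the submitters' processing notes, although the cells are rat. No source used here names the counting program. The authors deposited estimated counts per gene as whole numbers, used as deposited. Low counts fall near multiples of 6, so a count may not be 1 read; limits on low counts reflect counting alone. The deposited normalized signal equals each library's counts divided by 1 size factor and entered no test. The deposited log2 fold changes, test scores, p-values and mean expression of the authors' own comparison are quoted only where named. Another table, with 6 per-sample columns that could not be matched to a label, was not used.

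Counts were filtered (filterByExpr, minimum count 10), TMM-scaled and tested across all entries with edgeR 4.0.16 in R 4.3.3 (glmQLFit, glmQLFTest, group as the only term), with Benjamini-Hochberg adjustment at 0.05. Each SE is the absolute log2 fold change over the square root of F. Alternatives used DESeq2 1.42.0 and limma 3.58.1, other filters and scalings, a replicate block and leaving out each library. The default edgeR, DESeq2 and limma voom fits were tried on simulated counts with known changes. The other settings, the ratios and the motif search were not. Genes described in full were those past the adjusted test, those with unadjusted p under 0.05 or groups that do not overlap, the most abundant of each role, all kinases and the isozyme pairs. In other lists they were genes past the adjusted test or, failing that, those with the 2 smallest p and the 2 most abundant. Some genes that this rule picks are not reported here. Members and lists were chosen with earlier results of these data known.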

Additional observations from a re-analysis of the deposited data

Results flagged for a closer look

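The mean expression that the authors' deposited table lists for 2 genes lies far above all 6 libraries. For Pdk4 the authors' deposited table lists a mean of 319, against a highest normalized value of 9.61 among the 6 libraries. For Me3 the authors' deposited table lists a mean of 467, against a highest value of 74.3. For 23 of the 30 tested genes the listed mean exceeds all 6 normalized values, and for 5 it is below all 6. No source used here says how that mean was formed.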

How the results depend on the processing

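No member of the list was called in any edgeR or limma voom setting. DESeq2 called 1, Glud1. Other pathway genes called numbered 1 with DESeq2, limma voom and the robust fit. Over both comparator lists 2 were called with DESeq2, 0 with a replicate block, and 0 to 1 when 1 library was left out. Over all entries the count was 394 with DESeq2, 110 with limma voom, 132 with the robust fit, 94 without the low-count filter, 93 with counts divided by 6, 9 with a replicate block and 12 to 38 with 1 library left out, against 61. After each gene's group mean was subtracted from its log2 CPM, same-numbered libraries had correlations of -0.23, 0.04 and 0.04. The numbers were therefore not used as pairs. The cause of these changes was not tested. The members' median ran from 0.030 to 0.044 when 1 library was left out.

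Log2 fold changes near 0 turned sign. Mpc2 was -0.000377 with DESeq2 size factors, -0.000505 with DESeq2, -0.00255 with limma voom, -0.00047 at a minimum count of 50 and -0.00259 with counts divided by 6. Dld was -0.000149 with DESeq2 size factors, -0.00013 with DESeq2, -0.000291 at a minimum count of 50 and -0.000353 with counts divided by 6. With 1 library left out the ranges were -0.048 to 0.13 for Mpc1, -0.053 to 0.082 for Mpc2, -0.026 to 0.048 for Pdhb, -0.044 to 0.043 for Dld, -0.034 to 0.090 for Pdhx, -0.017 to 0.12 for Pdk1 and -0.23 to 0.018 for Pdk2. They were -0.12 to 0.043 for Pdp1, -0.058 to 0.023 for Me2, -0.50 to 1.76 for Me3, -0.026 to 0.00084 for Idh2, -0.11 to 0.014 for Idh3g, -0.034 to 0.014 for Suclg1 and -0.020 to 0.060 for Eif2ak3. Me3 had no value at a minimum count of 50 or with counts divided by 6. Pdk4 was at or near 0 counts in all 6 libraries, and Me3 ran from 0 to 74 counts among control libraries.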

Other observations

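The ratio of the mean in the authors' deposited table to the mean of the 6 normalized libraries had a median of 1.44 over the 30 tested genes and 1.02 over all 14488 tested entries. Among well-measured genes it was 2.05 for Pdhb, 1.99 for Pdha1 and 1.96 for Pdp1, and 0.824 for Glud1 and 0.88 for Got2.

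Aldh18a1, which turns glutamate into a proline precursor, was chosen after its values were seen. It stood at 12.0, 21.4 and 115 CPM in PERK-labelled libraries, against 97.8, 126 and 18.4 CPM in control libraries. Both groups thus held libraries near the low and near the high level, with a log2 fold change of -0.71 and an SE of 0.88 (edgeR adjusted p = 0.818).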
